A study of Mus musculus with 6 samples.

Results

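The tumor necrosis factor (TNF) ligands and their receptors were examined in mouse acute myeloid leukemia with or without the nuclear receptor gene Ppara. Genes were members if they were named Tnfsf or Tnfrsf, or were Tnf, Lta, Ltb, Ltbr, Cd27, Cd40, Cd40lg, Cd70, Fas, Fasl, Edar, Eda2r, Ngfr or Relt, and had an array row paired with 1 gene symbol. That gave 42 members among the 30142 genes tested, 15 ligands and 27 receptors. Cd27, Tnfsf12 and Tnfsf13 had no row of their own, because the rows that carry their symbols carry others too, and have no values here. The study measured RNA on 6 arrays, 3 of Ppara-/- and 3 of Ppara+/+ leukemia. Both genotypes carried the same retrovirus, MSCV-MLL-AF9-IRES-GFP, which expresses the MLL-AF9 fusion oncogene and green fluorescent protein (GFP). Marrow mononuclear cells of secondary recipients were sorted on GFP, so a host's own GFP-negative cells should be depleted. The mice came from a commercial supplier and were backcrossed on arrival; the sources used here give no strain, age or sex. The titles number 3 replicates per genotype and do not say whether these were separate mice or separate primary leukemias, so the spread behind each p-value may be technical.

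TNF ligands are mostly trimeric type II membrane proteins that can be shed, and they cluster their receptors on contact. Receptors with a death domain can recruit FADD and caspase-8 or TRADD and RIPK1, receptors without one bind TRAF adaptors and switch on NF-kB and MAP kinases, and decoy receptors bind ligand without such signals. In marrow the families govern myeloid inflammation, osteoclast formation, lymphocyte survival and the killing of cells by T and NK cells.

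Of the 42 members 0 passed the threshold of 0.05 on the adjusted p in either direction (limma, Benjamini-Hochberg over all genes), where 0.126% of all genes did, 38 of 30142 (0.0597% higher and 0.0664% lower). The 4 members with an unadjusted p under 0.05 were Tnfrsf18, Tnfsf13b and Tnfrsf14, all with more signal in Ppara-/- samples, and Tnfrsf1b, with less. They are 9.52% of the members, against 5.78% of all genes (3.17% higher and 2.61% lower). The lowest adjusted p of a member was 0.237, for Tnfrsf18. Of the members 26 had a positive and 16 a negative log2 difference, Ppara-/- minus Ppara+/+, with a median of 0.03, against a median of 0.02 over all genes. The 95% interval of the difference lay within 0.5 on the log2 scale on both sides of 0 for 32 members and within 1 for 41, the exception being Tnfsf13b. A p that misses the threshold does not show that a member was equal in both genotypes, and differences within these intervals may go undetected with 3 arrays a group.

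**Figure D1:**
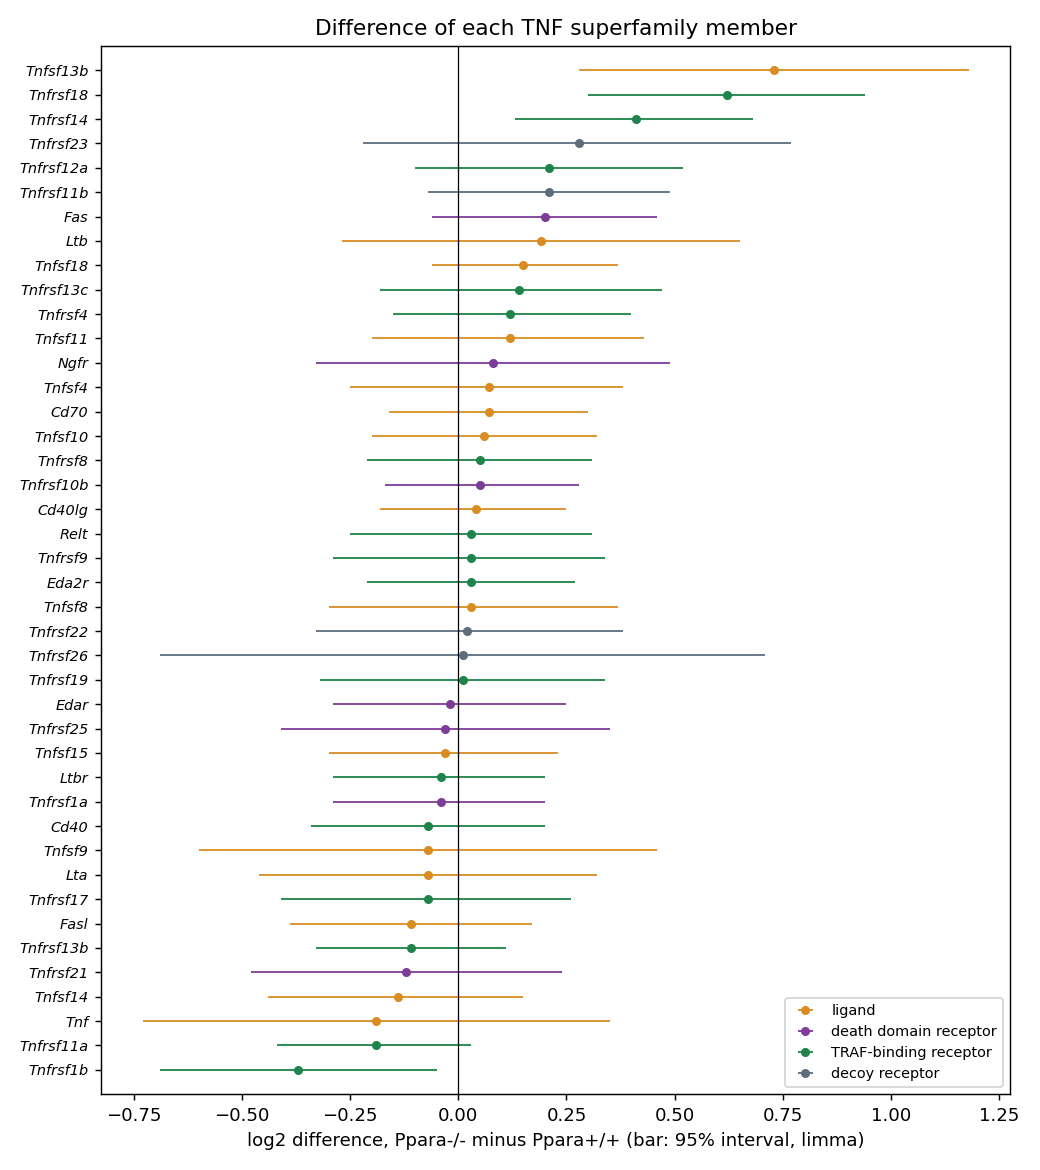
Log2 difference of each of the 42 members (x axis, Ppara-/- minus Ppara+/+) with its 95% interval from limma, coloured by role. The intervals of Tnfsf13b, Tnfrsf18, Tnfrsf14 and Tnfrsf1b leave out 0, and 0 of the 42 members passed after adjustment over all genes.

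The promoters of these 4 members are shown because no other member had an unadjusted p under 0.05. Each run holds 250 bases before and 50 after the gene's start, from RefSeq on mouse build GRCm38.p6, and capitals mark a match to a searched motif.
Tnfrsf18, chr4:156026072-156026371 (+ strand): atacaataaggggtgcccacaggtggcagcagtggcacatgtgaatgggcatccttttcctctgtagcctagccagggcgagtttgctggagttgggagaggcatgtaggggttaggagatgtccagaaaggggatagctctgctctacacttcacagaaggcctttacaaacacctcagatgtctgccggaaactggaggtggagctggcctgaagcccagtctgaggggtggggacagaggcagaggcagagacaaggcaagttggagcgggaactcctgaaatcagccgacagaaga
Tnfsf13b, chr8:10006217-10006516 (+ strand): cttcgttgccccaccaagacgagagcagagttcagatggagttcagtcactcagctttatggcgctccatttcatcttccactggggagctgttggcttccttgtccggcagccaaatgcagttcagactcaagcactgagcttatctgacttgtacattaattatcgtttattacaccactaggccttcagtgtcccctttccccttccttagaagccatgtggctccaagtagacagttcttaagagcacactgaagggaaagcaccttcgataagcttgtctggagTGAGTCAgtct
Tnfrsf14, chr4:154928028-154928327 (- strand): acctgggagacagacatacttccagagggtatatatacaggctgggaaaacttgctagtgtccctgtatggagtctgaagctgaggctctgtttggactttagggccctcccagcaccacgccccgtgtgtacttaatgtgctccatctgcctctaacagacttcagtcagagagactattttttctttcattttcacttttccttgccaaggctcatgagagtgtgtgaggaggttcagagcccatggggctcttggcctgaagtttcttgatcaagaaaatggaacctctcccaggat
Tnfrsf1b, chr4:145246821-145247120 (- strand): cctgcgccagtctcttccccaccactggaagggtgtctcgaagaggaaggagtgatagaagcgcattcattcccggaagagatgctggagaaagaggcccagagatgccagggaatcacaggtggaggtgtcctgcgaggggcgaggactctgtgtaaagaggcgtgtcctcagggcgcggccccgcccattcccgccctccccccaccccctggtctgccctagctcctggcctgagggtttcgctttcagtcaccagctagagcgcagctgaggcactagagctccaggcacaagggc
Both strands were searched for 4 motifs: GGG and TTTCC with any 2 bases between, a form of the NF-kB site, a pair of AGGTCA half-sites with any 1 base between, the direct repeat bound by PPAR, TGANTCA, the AP-1 site, and GAGGAAGT, an ETS site of the PU.1 type. Overlapping matches were allowed. The only match in the 4 runs was an AP-1 site near the 3′ end of the Tnfsf13b run, the first of 2 starts listed for that gene. Of the 42 members 33 had a promoter in the table, 37 promoters in all, and a member was counted if any of its promoters held the letters. The NF-kB letters stood in those of Ltb, Tnfrsf25 and Tnfrsf9, the AP-1 letters in those of 5 members, the PU.1 letters in that of Tnfsf18 and the PPAR repeat in 0 of 33. Over all 32851 promoters of this length the shares, counted by promoter and not by gene, were 1.63% for the NF-kB form, 7.81% for AP-1, 3.2% for PU.1 and 0.0396% for the PPAR repeat. A match describes letters in this window and does not show binding.

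Signals are log2 values, and those of different genes are not compared as RNA levels because each probe set has its own response. What can be said is how each stands to the negative-control probe sets, whose 95th percentile was 7.91 to 8.23 on the 6 arrays and whose median was 4.63 to 5.16. Of the 42 members 5 lay above the 95th percentile of their array on all 6 arrays, as did 3102 of all 30142 genes. They were Tnf, Tnfrsf1a, Tnfrsf14, Tnfrsf1b and Tnfrsf21, and Ltbr lay above it on 4. The other 36 members lay above it on no array, as did 25376 of all genes. Of these members 10, 8 ligands among them, lay under the negative-control median on all 6, as did 10862 of all genes. A change in such dim members could be missed.

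**Figure D2:**
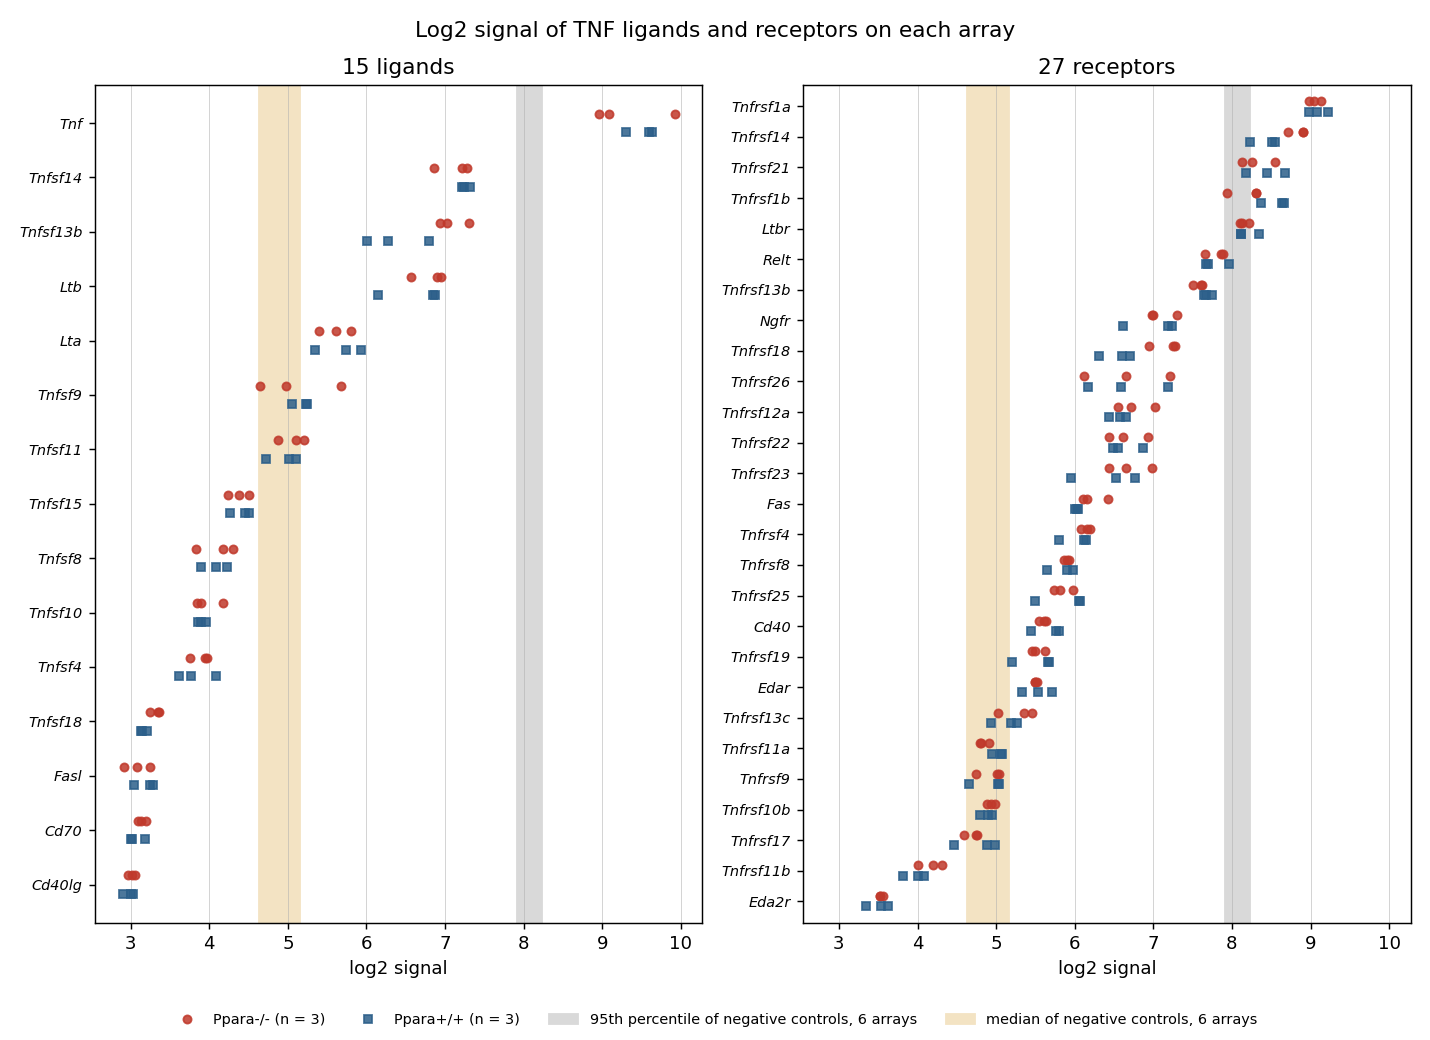
Log2 signal (x axis) of the 15 ligands and 27 receptors on each array, Ppara-/- as red circles above Ppara+/+ as blue squares, with bands for the range over the 6 arrays of the negative controls' median and 95th percentile. Tnf is the 1 ligand to the right of both bands, and the 2 genotypes are apart in Tnfsf13b and Tnfrsf18.

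Among the ligands Tnfsf13b, which encodes BAFF, the survival factor of B cells that myeloid cells release, had the largest log2 difference of any member in the fit with all 6 arrays weighted equally. Its log2 signal was 7.02, 7.31 and 6.93 in Ppara-/- samples, against 6.01, 6.28 and 6.79 in Ppara+/+ samples. All Ppara-/- values lay above all Ppara+/+ values, with a gap of less than the spread within Ppara+/+, where replicate 3 was highest. The means were 7.09 ± 0.20 in Ppara-/- samples and 6.36 ± 0.40 in Ppara+/+ samples (SD, n = 3 each), a log2 difference of 0.73 (95% interval 0.28 to 1.18, signal ratio 1.65), which did not pass (limma, unadjusted p = 0.00547, adjusted p = 0.41). With Ppara+/+ replicate 1 left out the difference was 0.55, and with Ppara+/+ replicate 3 left out it was 0.94. With array weights it was 0.48, less than the 0.57 of Tnfrsf18 in that fit.

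None of the 3 receptors for BAFF passed (limma, adjusted p under 0.05), and their log2 differences went both ways. Tnfrsf13b, which encodes TACI and also binds APRIL, was at 7.61, 7.50 and 7.62 in Ppara-/- samples, against 7.64, 7.67 and 7.75 in Ppara+/+ samples. The genotypes did not overlap, with Ppara-/- lower, but the log2 difference was small, at -0.11 (SE 0.10, limma adjusted p = 0.997). Tnfrsf13c, the BAFF receptor proper, averaged 5.27 ± 0.23 in Ppara-/- samples and 5.13 ± 0.17 in Ppara+/+ samples, and Tnfrsf17, which encodes BCMA, averaged 4.70 ± 0.10 in Ppara-/- samples and 4.77 ± 0.28 in Ppara+/+ samples (SD, n = 3 each). Both overlapped between genotypes, with log2 differences of 0.14 and -0.07.

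Tnf itself, the inflammatory cytokine that names the family, was the ligand with signal well clear of the negative controls. It was at 8.96, 9.08 and 9.92 in Ppara-/- samples, against 9.59, 9.30 and 9.63 in Ppara+/+ samples. Replicate 3 of the Ppara-/- group was the highest of all 6 and the other 2 of that group the lowest, so the genotypes overlapped. The log2 difference was -0.19 (95% interval -0.73 to 0.35, limma adjusted p = 0.997), and it was -0.01, -0.07 and -0.49 with Ppara-/- replicate 1, 2 and 3 left out in turn. Without Ppara-/- replicate 3 the unadjusted p was 0.00991 and the adjusted p 0.679 (limma), so the result for Tnf depended on that array. Its chromosomal neighbours also overlapped between genotypes: Ltb, the membrane-anchoring lymphotoxin, averaged 6.81 ± 0.21 in Ppara-/- samples and 6.62 ± 0.41 in Ppara+/+ samples, and Lta, the secreted lymphotoxin, 5.60 ± 0.21 in Ppara-/- samples and 5.67 ± 0.30 in Ppara+/+ samples (SD, n = 3 each).

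Like Tnfsf13b, Ltb and Lta, the remaining ligands were dim, above the 95th percentile of the negative controls on no array. Tnfsf14, which encodes LIGHT, a ligand of HVEM and of the lymphotoxin beta receptor, was at 7.21, 7.28 and 6.86 in Ppara-/- samples, against 7.32, 7.22 and 7.24 in Ppara+/+ samples, and overlapped. Tnfsf9, a T cell costimulator, averaged 5.10 ± 0.53 in Ppara-/- samples, where replicate 3 was highest at 5.68, and 5.17 ± 0.11 in Ppara+/+ samples (SD, n = 3 each). Some ligands by which T and NK cells kill or signal lay under the negative-control median throughout, among them Fasl, Tnfsf10 (TRAIL) and Cd40lg. Fasl averaged 3.08 ± 0.16 in Ppara-/- samples and 3.19 ± 0.13 in Ppara+/+ samples, Tnfsf10 3.97 ± 0.18 in Ppara-/- samples and 3.91 ± 0.05 in Ppara+/+ samples, and Cd40lg 3.01 ± 0.04 in Ppara-/- samples and 2.98 ± 0.07 in Ppara+/+ samples (SD, n = 3 each). Tnf, Lta, Ltb and Tnfsf14 lay above that median on all 6 arrays. Tnfsf18, the ligand of GITR, did not overlap between genotypes, at 3.35, 3.24 and 3.36 in Ppara-/- samples and 3.21, 3.15 and 3.13 in Ppara+/+ samples. Those values all lie under the median of the negative controls. Tnfsf11 (RANKL, the osteoclast factor), Cd70, Tnfsf4, Tnfsf8 and Tnfsf15 overlapped between genotypes, with log2 differences of -0.03 to 0.12.

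Tnfrsf18, which encodes GITR, a costimulatory receptor best known on regulatory T cells, had the smallest p of any member. Its log2 signal was 7.27, 7.25 and 6.95 in Ppara-/- samples, against 6.31, 6.60 and 6.70 in Ppara+/+ samples. All Ppara-/- values lay above all Ppara+/+ values. The means were 7.16 ± 0.18 in Ppara-/- samples and 6.54 ± 0.20 in Ppara+/+ samples (SD, n = 3 each), a log2 difference of 0.62 (95% interval 0.30 to 0.94, signal ratio 1.54), which did not pass (limma, unadjusted p = 0.00186, adjusted p = 0.237). With each array left out in turn it was 0.51 to 0.72. Tnfrsf4, its neighbour on chromosome 4 and another T cell costimulator, averaged 6.14 ± 0.06 in Ppara-/- samples and 6.02 ± 0.19 in Ppara+/+ samples (SD, n = 3 each) and overlapped.

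Tnfrsf14 encodes HVEM, which binds LIGHT and the secreted lymphotoxin and is also the ligand of the inhibitory receptor BTLA. It was at 8.90, 8.90 and 8.71 in Ppara-/- samples, against 8.55, 8.23 and 8.51 in Ppara+/+ samples. The genotypes did not overlap, and every value was above the 95th percentile of its array's negative controls. The means were 8.84 ± 0.11 in Ppara-/- samples and 8.43 ± 0.17 in Ppara+/+ samples (SD, n = 3 each), a log2 difference of 0.41 (95% interval 0.13 to 0.68, signal ratio 1.33; limma unadjusted p = 0.00924, adjusted p = 0.507). Btla, which belongs to another family and was singled out after its values were seen, was at 5.55, 5.30 and 5.73 in Ppara-/- samples, against 7.78, 7.06 and 6.87 in Ppara+/+ samples. It fell by 1.71 on the log2 scale (SE 0.23, limma adjusted p = 0.0427). Unlike Tnfrsf14, Btla lay under the 95th percentile of the negative controls on every array. Of 18 alternative fits 6 called it. With 1 array left out it was called without Ppara+/+ replicate 1 (limma adjusted p = 0.0225) and not without any of the other 5 arrays (0.058 to 0.227).

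Tnfrsf1b, the receptor for TNF that lacks a death domain, was the 1 member with less signal in Ppara-/- samples and an unadjusted p under 0.05. It was at 8.31, 8.31 and 7.94 in Ppara-/- samples, against 8.64, 8.37 and 8.66 in Ppara+/+ samples. The genotypes did not overlap, and the nearest values of the 2 groups lay close together. The means were 8.19 ± 0.21 in Ppara-/- samples and 8.56 ± 0.16 in Ppara+/+ samples (SD, n = 3 each), a log2 difference of -0.37 (95% interval -0.69 to -0.05; limma unadjusted p = 0.0273, adjusted p = 0.763). With Ppara-/- replicate 3 left out the difference was -0.25 (limma unadjusted p = 0.11).

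**Figure D3:**
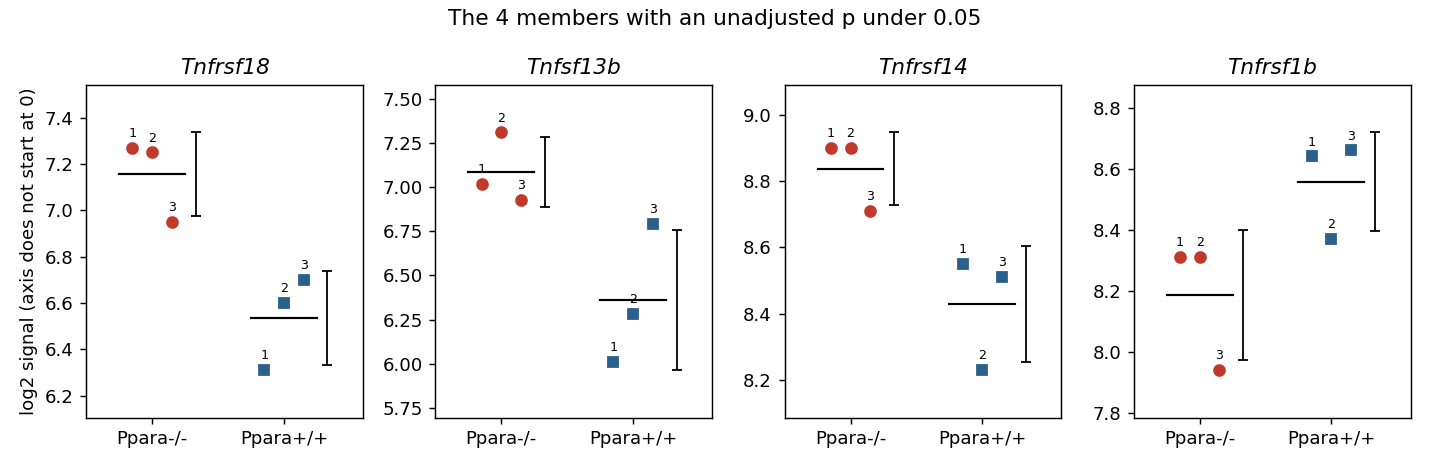
Log2 signal (y axis, not from 0) of Tnfrsf18, Tnfsf13b, Tnfrsf14 and Tnfrsf1b on each array, numbered by replicate, with the group mean as a line and the SD as the bar beside it (n = 3 each). The 3 Ppara-/- values lie above the 3 Ppara+/+ values in the first 3 genes and under them in Tnfrsf1b.

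Tnfrsf1a, the death domain receptor for TNF, was close to equal in the 2 genotypes, at 9.04, 9.13 and 8.98 in Ppara-/- samples, against 9.08, 8.98 and 9.22 in Ppara+/+ samples. Its log2 difference was -0.04 with a 95% interval of -0.29 to 0.20 (limma adjusted p = 0.997). Tnfrsf21, a death receptor known from neurons and T cells, was at 8.26, 8.55 and 8.13 in Ppara-/- samples, against 8.45, 8.18 and 8.68 in Ppara+/+ samples, with a log2 difference of -0.12. Ltbr, the lymphotoxin beta receptor, averaged 8.15 ± 0.06 in Ppara-/- samples and 8.19 ± 0.14 in Ppara+/+ samples (SD, n = 3 each). All of these overlapped.

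Fas, the death receptor that Fas ligand engages, had 2 rows that disagreed. The row with the higher mean was at 6.15, 6.10 and 6.42 in Ppara-/- samples, against 6.03, 6.0 and 6.04 in Ppara+/+ samples, without overlap. The other row was at 5.59, 5.77 and 5.77 in Ppara-/- samples, against 6.65, 5.54 and 5.67 in Ppara+/+ samples, so its log2 difference had the opposite sign (-0.24, SE 0.27, against 0.20, SE 0.11). Of 30099 named rows 99.67% carry in their identifier the number of the chromosome on which RefSeq places the gene. The Fas row with the higher mean carries 17, while RefSeq places Fas on chromosome 19, so whether it measures Fas is uncertain. The remaining death domain receptors, Tnfrsf10b, Tnfrsf25, Ngfr and Edar, overlapped, with log2 differences of -0.03 to 0.08.

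Of the other receptors that bind TRAF adaptors, Tnfrsf11a, which encodes RANK, the receptor that drives osteoclast formation, was at 4.81, 4.79 and 4.91 in Ppara-/- samples, against 4.95, 5.08 and 5.06 in Ppara+/+ samples. The genotypes did not overlap, at signals near the negative-control median, with a log2 difference of -0.19 (SE 0.10, limma adjusted p = 0.956). Tnfrsf12a, the TWEAK receptor, averaged 6.76 ± 0.24 in Ppara-/- samples and 6.55 ± 0.11 in Ppara+/+ samples, and Cd40, the receptor by which T cells license antigen-presenting cells, 5.60 ± 0.04 in Ppara-/- samples and 5.67 ± 0.20 in Ppara+/+ samples (SD, n = 3 each). Tnfrsf8, Tnfrsf9, Tnfrsf19, Eda2r and Relt had log2 differences of 0.01 to 0.05. All 7 overlapped, and a second, dimmer row of Tnfrsf19 had a log2 difference of 0.18. Of the 42 members 8 (19.0%) had no overlap between genotypes, 5 with Ppara-/- higher and 3 lower, against 8.78% of all genes (5.15% higher and 3.63% lower). These 8 include the Fas row of uncertain target and 2 members, Tnfsf18 and Tnfrsf11a, near or under the negative-control median.

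Tnfrsf22, Tnfrsf23 and Tnfrsf26, grouped here as decoy receptors, are consecutive genes on chromosome 7. In each the 3 values of either genotype spanned more than the difference between the group means. For Tnfrsf23 that log2 difference, 0.28, was close to the SD within Ppara-/-, 0.27. Tnfrsf26 was at 6.65, 7.21 and 6.12 in Ppara-/- samples, against 7.19, 6.17 and 6.59 in Ppara+/+ samples. Tnfrsf22 was at 6.61, 6.93 and 6.44 in Ppara-/- samples, against 6.87, 6.49 and 6.55 in Ppara+/+ samples. Tnfrsf23 was at 6.44, 6.98 and 6.65 in Ppara-/- samples, against 6.77, 5.95 and 6.52 in Ppara+/+ samples. In all 3 the highest values were those of Ppara-/- replicate 2 and Ppara+/+ replicate 1. Those are also the 2 arrays with the highest negative-control medians, 4.99 and 5.16, against 4.63 to 4.81 on the other 4. Many other members went the opposite way: in 18 of 42 (42.9%) those arrays held the 2 lowest values, as they did in 29.9% of all genes. They held the 2 highest values in 4 of 42 members (9.52%), against 11.5% of all genes. The part of array background in these patterns was not tested. With the negative-control median as a covariate the log2 differences were 0.59 for Tnfrsf18, 0.71 for Tnfsf13b, 0.46 for Tnfrsf14 and -0.31 for Tnfrsf1b. With those 2 arrays left out they were 0.46 for Tnfrsf18, 0.44 for Tnfsf13b, 0.44 for Tnfrsf14 and -0.39 for Tnfrsf1b, and the unadjusted p of Tnfsf13b was 0.057 and that of Tnfrsf1b 0.0649 (limma). Tnfrsf11b, the secreted decoy osteoprotegerin that binds RANKL, averaged 4.17 ± 0.15 in Ppara-/- samples and 3.96 ± 0.14 in Ppara+/+ samples (SD, n = 3 each).

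**Figure D4:**
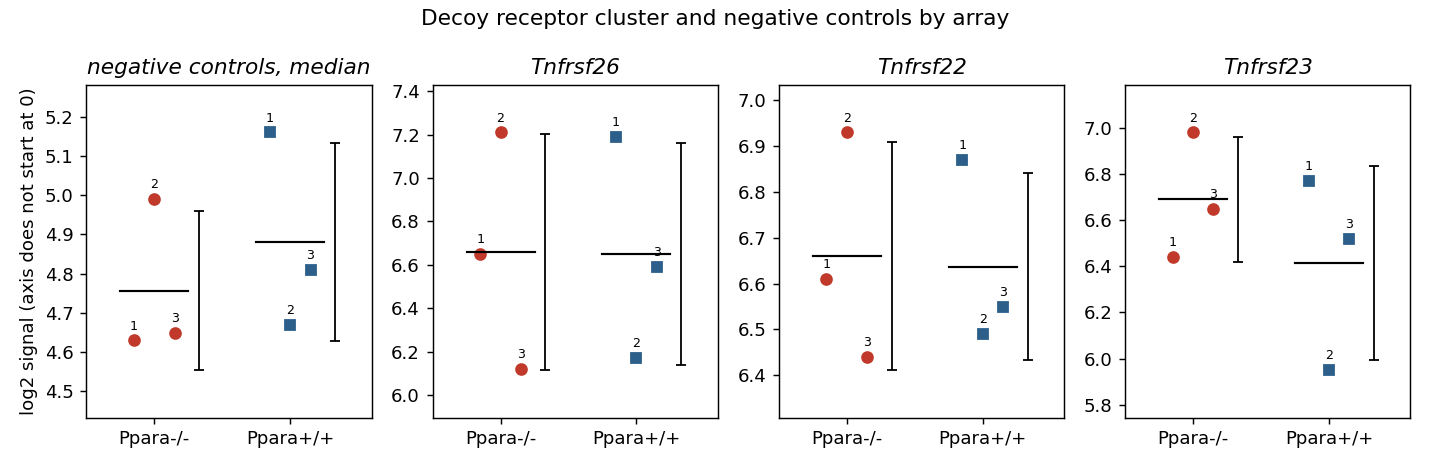
Log2 signal (y axis, not from 0) on each array of the negative controls (median) and of Tnfrsf26, Tnfrsf22 and Tnfrsf23, numbered by replicate, with the group mean as a line and the SD as the bar beside it (n = 3 each). Ppara-/- replicate 2 and Ppara+/+ replicate 1 are highest in each panel.

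Other genes of the pathway gave the same count. The list holds genes that act downstream of the receptors and, besides these, the ligand gene Eda, sheddases such as Adam17 and other regulators of the family. Of 71 listed adaptors, ubiquitin editors, NF-kB and MAP kinase components, death effectors, sheddases and regulators, 65 were measured and 0 passed in either direction (limma, adjusted p under 0.05; 2 at an unadjusted p under 0.05, or 3.08%, against 5.78% of all genes). Their median log2 difference was -0.01. The 2 were Traf7, an adaptor of the TRAF family, at 7.96 ± 0.03 in Ppara-/- samples and 7.73 ± 0.06 in Ppara+/+ samples, and Zfp36l1, an RNA-binding protein that promotes decay of AU-rich messages, at 6.03 ± 0.44 in Ppara-/- samples and 6.64 ± 0.46 in Ppara+/+ samples (SD, n = 3 each). Next by p came Tnfaip8l2, a brake on receptor signalling in immune cells (log2 difference -0.35), Casp8, the initiator caspase of death receptors (-0.40), Traf1, an adaptor that NF-kB induces (0.22), Tab2, which links ubiquitin chains to the kinase TAK1 (-0.24), Grn, whose product progranulin can bind TNF receptors (-0.25), and the NF-kB subunit gene Rel (-0.38). Ripk1, Traf3, Chuk and Nfkb1 are among the listed genes that are not analysed here.

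**Figure D5:**
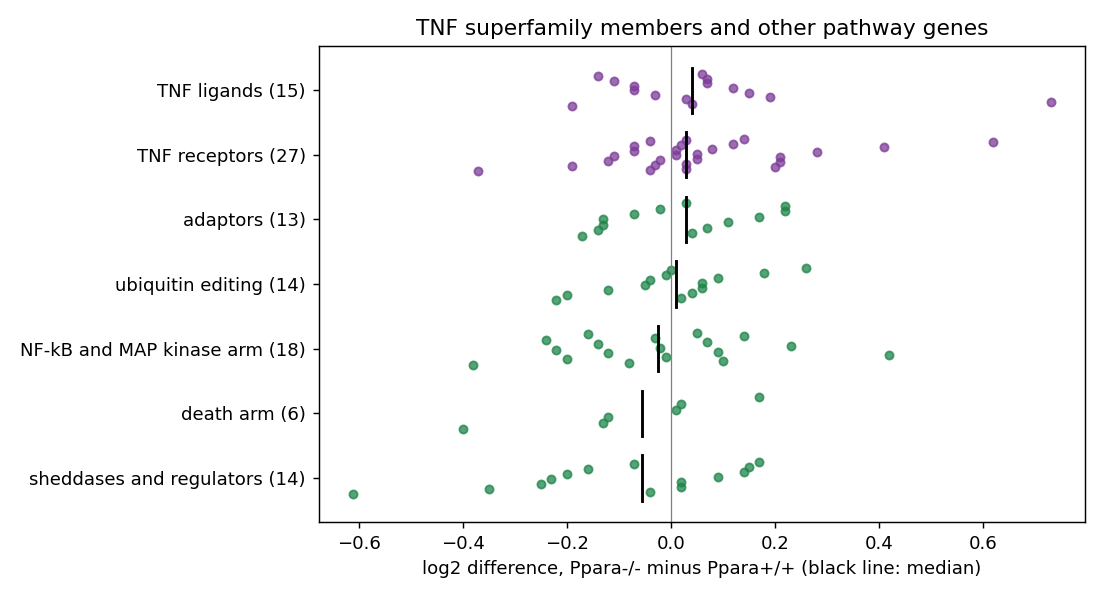
Log2 difference (x axis, Ppara-/- minus Ppara+/+) of each TNF ligand and receptor in purple and of each other measured pathway gene in green, in rows by group with the number of genes, and the median of the group as a black line. The medians lie between -0.06 and 0.04.

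Markers of cells that the sort could hold were read on the same arrays. Of 13 measured markers of leukemic myeloid cells, such as Mpo, Elane and Itgam, 10 lay above the 95th percentile of the negative controls on all 6 arrays. Of 12 T cell, 10 NK cell and 11 B cell markers, 0 did so on any array, and 2, 7 and 5 of them lay under the negative-control median on all 6. Of all 30142 genes 25376 lay above that percentile on no array and 10862 under that median on all 6. The counts of these markers therefore do not show that such cells were absent. Monocyte and macrophage markers stood lower with Ppara-/-: 12 of 16 had a negative log2 difference, 8 did not overlap between genotypes, all lower in Ppara-/-, and the list's mean signal was 6.95 to 7.30 on Ppara-/- arrays and 7.49 to 7.66 on Ppara+/+ arrays. None passed over all genes, and 7 had an unadjusted p under 0.05 (limma). The 8 of 16 markers stand against 3.63% of all genes that were lower without overlap, and the 7 (43.8%) against 2.61% of all genes that were lower with such a p. Ccr2 and Cd14, which also mark monocytes, had positive log2 differences of 0.37 and 0.23 and overlapped. These values stand beside the values of Tnfrsf1b and Tnfsf13b, both of which monocytes express, and their part in them was not tested. Of the leukemic myeloid markers 2 (15.4%) did not overlap, Kit (log2 difference 0.54) and Csf3r (0.37). Both were higher in Ppara-/-, against 5.15% of all genes that were higher without overlap. Of 10 late neutrophil markers 7 lay above the 95th percentile of the negative controls on all 6 arrays, and 3 did not overlap: Retnlg was higher in Ppara-/- (1.28), and Mmp8 (-0.65) and Lcn2 (-0.30) were lower. Lower in Ppara-/- without overlap were also 2 of 7 dendritic cell markers, Cd209a (-0.77) and Ccr9 (-0.15), 1 of 11 stromal and endothelial markers, Pdgfrb (-1.03, limma adjusted p = 0.0698), and 1 of 11 B cell markers, Cd79b (-0.40). All T cell markers, NK cell markers and the 3 measured erythroid markers overlapped, and 0 markers of any list passed. In sorted populations fewer cells of a type and less RNA per cell cannot be told apart. Ppara itself averaged 5.19 ± 0.12 in Ppara-/- samples and 5.08 ± 0.18 in Ppara+/+ samples (SD, n = 3 each; limma adjusted p = 0.997). The files do not say where in Ppara the probes bind, and the value therefore checks no genotype.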

How the data were processed

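RNA of 6 samples was measured on Affymetrix arrays, 3 per genotype by the sample titles. The deposited values are log2 signals, and the submitters' processing notes name RMA and limma, without versions. RMA includes quantile normalization, which would remove a shift shared by most genes. The row identifiers have a form that the named array model does not use, so the model is uncertain; the sources used here give neither annotation nor build. Of 72688 rows, 6732 were controls; a platform table paired 30604 others with 1 gene symbol, 2146 with several, and left 33206 unnamed. Symbols were updated by gene ID through RefSeq (GRCm38.p6), used otherwise for gene order. The row with the highest mean stood for a gene, with no filter on dim rows. Genes were fitted with limma 3.58.1 (R 4.3.3, lmFit and eBayes, no covariates, two-sided) and adjusted by Benjamini-Hochberg over all 30142 genes; the threshold was 0.05, and SEs are moderated. The fit was tested on simulated data. Between arrays r across genes was 0.9839 to 0.9956, where genes are not independent replicates. The number of arrays limits the precision. Members and lists were chosen with earlier results of these data known. Named with values were members with an unadjusted p under 0.05, members above the highest 95th percentile of negative controls (8.23), and the 8 pathway genes of smallest p; other members and Btla were singled out after their values were seen. Alternatives were other priors, normalizations, filters, row choices, weights, a replicate block, a background covariate, arrays left out and another threshold.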

Additional observations from a re-analysis of the deposited data

How the results depend on the processing

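The count of 0 members held in all 19 alternative fits and at an adjusted p under 0.1, and so did the count of 0 other pathway genes. The fits on genes above the negative controls' 95th percentile and median held only 5 and 26 of the 42 members. With array weights Tnfrsf18 and Tnfrsf14 came nearest (limma adjusted p = 0.0588 and 0.0963). Tnfrsf18 and Tnfrsf14 had an unadjusted p under 0.05 in every alternative fit that held them (18 and 19), Tnfsf13b in 17 of 18 and Tnfrsf1b in 12 of 19, all without a change of sign. The count over all genes, 38, was less stable: 70 with a trended and robust prior, 23 with quantile normalization, 14 with cyclic loess, 22 centred on negative controls, 13 centred on the median gene, 1 among genes above the negative controls' 95th percentile, 271 with array weights, 76 at an adjusted p under 0.1 and 6 to 38 with 1 array left out. Without both arrays of highest negative-control median limma called 0 of all genes (2870 at an unadjusted p under 0.05), so the 0 members there follow from that. Centring on negative controls moved the median gene to 0.15 and the members' median to 0.16. Signs turned for Tnfrsf1a (0 with cyclic loess, where the value rounds to nothing, 0.08 centred on negative controls, -0.10 to 0.02 with 1 array left out), Tnfrsf13b (0.01 centred on negative controls) and Fas (-0.02 with the mean of its rows). The cause was not tested. Replicate numbers are shared between genotypes. Same-numbered arrays deviated from their group means with r = -0.326, -0.469 and 0.108, and no sample correlated best with its own number. The highest r, 0.5, was that of Ppara-/- replicate 2 with Ppara+/+ replicate 1, the arrays of highest negative-control median. Some pathway genes, given below, had their highest value on the same replicate number in both genotypes. With so few arrays a group, these values cannot decide whether same-numbered arrays share more than a number. With the replicate block limma called 12 genes and 0 members.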

Other observations

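Tnfaip3 and Nfkbia, feedback genes that NF-kB induces, were highest on replicate 3 of each genotype. Tnfaip3, which encodes the ubiquitin editor of that feedback, was at 8.49, 8.74 and 10.05 in Ppara-/- samples, against 8.72, 8.01 and 9.76 in Ppara+/+ samples. Nfkbia, the inhibitor that holds NF-kB in the cytoplasm, was at 9.74, 9.91 and 10.88 in Ppara-/- samples, against 9.76, 9.39 and 10.12 in Ppara+/+ samples. Tnf and Tnfsf9 were also highest on Ppara-/- replicate 3. Within Ppara+/+ their replicate 3 was highest too, but only just above replicate 1 (9.63 against 9.59 for Tnf, 5.24 against 5.23 for Tnfsf9). On the pathway list Rel, Relb, Nfkb2, Nfkbie, Nfkbib, Litaf and Rhbdf2 likewise had their highest value of each genotype on replicate 3. Nfkb2, for one, was at 7.88 on Ppara-/- replicate 3 and at 7.70 on Ppara+/+ replicate 3. The order was not particular to these genes. On the same list Traf4, Traf5, Madd, Rnf31, Tnip2, Spata2, Map3k14, Ripk3 and Zfp36l1 also had it. Its share over all genes was not counted. Other genes of the list did not share this order in Ppara+/+: Birc3, Tnip1, Cyld and Zfp36 were highest on Ppara+/+ replicate 1, at 7.88, 8.15, 7.36 and 11.94. Cyld did not share it in Ppara-/- either, where it was highest on replicate 2, at 7.33. These genes were chosen after their values were seen, and no cause was tested.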
